A study of Mus musculus with 6 samples.

Results

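Cluster 13 is a small group of nuclei in the cluster assignment deposited with the data, which numbers the clusters and does not name them. Its members were all nuclei with that number, 160 of 38154 (0.419%, Wilson 95% confidence interval 0.359 to 0.489%), and they were described against the other 37994 nuclei. The nuclei came from jejunal organoids of C57BL/6 mice aged 8 to 12 weeks. The organoids were grown in medium conditioned by quiescent (QCM) or by senescent (SCM) mouse embryonic fibroblasts, with 3 samples of each. RNA molecules were counted per nucleus in droplets, from their 3′ ends. The labels number the replicates without tying them to animals, so p-values measure the spread between these samples only. Organoids of this kind hold epithelium without the stroma and immune cells of the gut, and both media come from fibroblasts.

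The small intestinal epithelium is renewed by crypt stem cells, whose progeny become absorptive enterocytes or secretory goblet, Paneth, tuft and enteroendocrine cells. Each type is known by a set of genes that rise together. The gene that led cluster 13, *Pnliprp2*, encodes pancreatic lipase related protein 2, a secreted lipase that cleaves triglycerides, phospholipids and galactolipids. Genes of this family are known best from the exocrine pancreas.

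Cluster 13 was led by 1 gene, though the count of genes at least 2-fold higher ranged from 1 to 8 with the processing. *Pnliprp2* was higher than in the other nuclei by 3.87 ± 1.50 on the log2 scale (SD, n = 4 samples), and the gene with the next largest difference by 0.97. Summed lists of cell type markers went in both directions. Paneth genes without *Pnliprp2* had 1489 against 1117 counts per 1000000 elsewhere, and stem cell genes 3659 against 3780. The Paneth sum was nearly level in SCM replicate 3. A *Pnliprp2* molecule was read in 100 of the 160 nuclei (62.5%, Wilson 95% interval 54.8 to 69.6%), and in 96 of these it was 1 molecule. This interval covers counting error only, and the share was 42.3% in QCM replicate 1 and 74.4% in QCM replicate 3. The comparison of a cluster with the nuclei left out of it is a description, since the cluster was formed from these genes, and carries no test.

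The nuclei were spread unevenly over the samples. QCM replicates 1, 2 and 3 held 26, 29 and 43 of them, and SCM replicates 1, 2 and 3 held 1, 3 and 58. As shares of the nuclei of each sample, these were 0.686%, 0.366% and 0.424% in QCM and 0.233%, 0.0597% and 0.535% in SCM. SCM replicates 1 and 2 lay below the QCM samples, and SCM replicate 3 lay among them. SCM replicate 1 rests on 430 nuclei, so that its Wilson interval ran from 0.0411 to 1.31%. The interval for SCM replicate 2, 0.0203 to 0.175%, lay under those of the QCM replicates and of SCM replicate 3. These intervals cover counting error only.

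The share of cluster 13 did not differ between the media beyond the spread of the samples. The fitted difference, SCM against QCM, was -0.71 ± 0.92 (log2, SE, 3 samples per medium; edgeR quasi-likelihood test over the 15 clusters, adjusted p = 0.882). The test called 0 of the 15 clusters (0% called), and 0 had an unadjusted p under 0.05. SCM replicates 2 and 3 set the size of the difference. It was -0.14 without SCM replicate 2 and -2.47 without SCM replicate 3 (edgeR, adjusted p = 0.932 and 0.591).

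**Figure D1:**
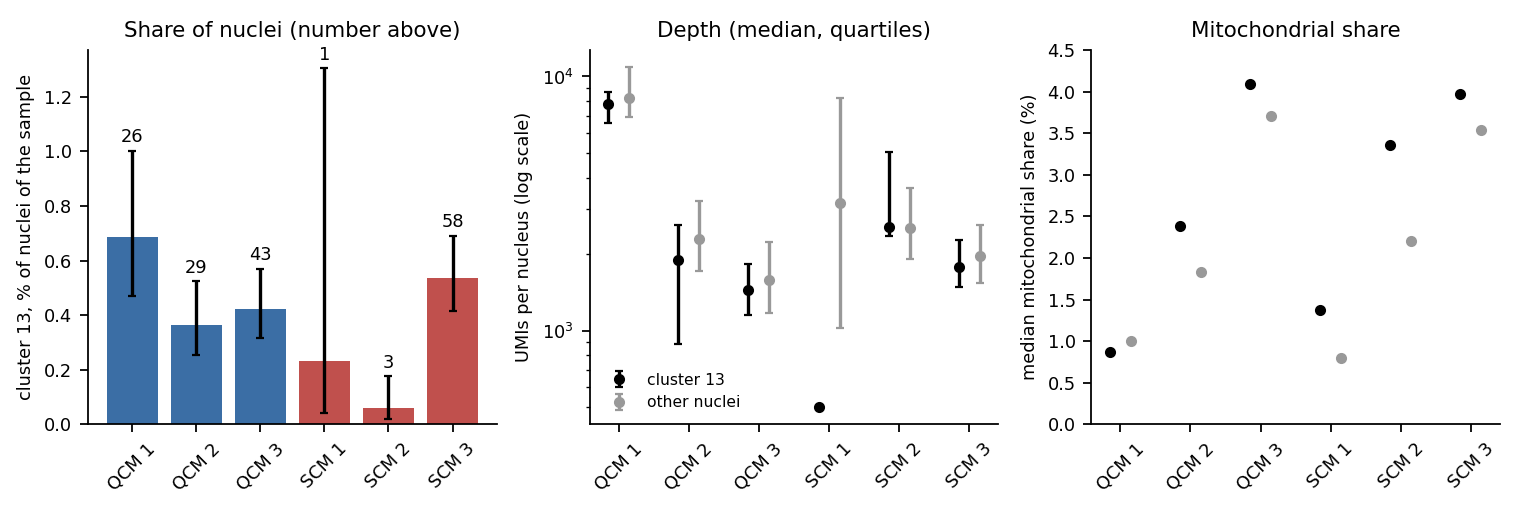
Share, depth and mitochondrial share of cluster 13 in each of the 6 samples: bars give the percentage of nuclei with Wilson 95% intervals and the number of nuclei above them (QCM blue, SCM red), and points give medians, with quartiles for UMIs per nucleus on a log scale. SCM replicate 3 holds 58 of the nuclei and SCM replicates 1 and 2 hold 1 and 3; the depth of cluster 13 follows that of the other nuclei (grey) in the samples with 3 or more of its nuclei.

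The median depth of these nuclei was 0.825 to 1.01 times that of the other nuclei in the 5 samples with 3 or more of them. The median number of molecules (unique molecular identifiers, UMIs) was 7777.5, 1899 and 1450 in QCM replicates 1, 2 and 3, against 8262, 2303 and 1579 in the other nuclei. In SCM replicates 2 and 3 the medians were 2564 and 1781.5, against 2547 and 1968. The only nucleus of SCM replicate 1 had 500 UMIs, where the other nuclei had a median of 3182. Means lay farther apart than medians, by -0.52, -0.68 and -0.31 on the log2 scale in QCM replicates 1, 2 and 3. In QCM replicate 2, 9 of 29 nuclei of cluster 13 (31.0%) had under 1000 UMIs, against 6.09% of the others, and the lower quartiles were 888 and 1711 UMIs.

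The ratio of the medians, cluster 13 to other nuclei, was 0.941, 0.825 and 0.918 in QCM and 0.157, 1.01 and 0.905 in SCM. On the log2 scale the SCM mean was lower by 0.77 than the QCM mean (difference -0.77; two-sided exact permutation test over 3 against 3 samples, p = 0.8, where the smallest possible is 0.1). That difference rested on the single nucleus of SCM replicate 1, and it was 0.096 without that sample (exact permutation p = 0.6).

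The deposited mitochondrial share of a nucleus had medians in cluster 13 of 0.872%, 2.39% and 4.09% in QCM replicates 1 to 3, and of 1.37%, 3.36% and 3.98% in the SCM replicates. In the other nuclei the medians were 1.01%, 1.83% and 3.71% in QCM and 0.802%, 2.21% and 3.54% in SCM. Cluster 13 was thus higher in 5 of 6 samples, by 0.376 to 1.16 percentage points, and lower by 0.135 points in QCM replicate 1 (difference -0.135). The 1.16 points rest on 3 nuclei of SCM replicate 2, and 0.570 points on 1 nucleus of SCM replicate 1. In QCM replicates 2 and 3 and SCM replicate 3 the differences were 0.559, 0.376 and 0.436 points. The part of the mitochondrial share in the results below was not tested.

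Doublet scores were compared next. Of the 6% of nuclei with the highest doublet scores in each sample, cluster 13 held 5 (3.13% of its nuclei), against 6.01% of the other nuclei. SCM replicate 1 stood apart from the other libraries, since 175 of its 430 nuclei (40.7%) carried a barcode also present in QCM replicate 1, where no other pair of libraries shared more than 36. In cluster 13, 4 nuclei carried a barcode found in another library, and in each case the partner lay in another cluster. The only nucleus of SCM replicate 1 in cluster 13 was one of them, with its barcode also in QCM replicate 1, so the SCM replicate 1 share and the depth difference of -0.77 rest on a nucleus with a shared barcode. *Xist*, the RNA of the inactive X chromosome, also split the libraries, with 4096 CPM in QCM replicate 1 and 6606 CPM in SCM replicate 1, and 1.06 to 2.51 CPM in the other 4. Its part in the results was not tested. SCM replicate 1 gave 1 nucleus to cluster 13 and does not enter the log2 differences below, which use samples with at least 5 of its nuclei.

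On the map of nuclei deposited with the data, nuclei of cluster 13 lay mostly beside each other, with nuclei of other clusters among their neighbours. Among the 15 nearest nuclei of each member, 67.2% were also in cluster 13, 18.6% in cluster 1 and 8.96% in cluster 7. Clusters 1 and 7 held 21.3% and 3.78% of all nuclei. Cluster 1 is led by ribosomal protein genes (*Rpl32* first) and cluster 7 by *Syt16*, a synaptotagmin family gene.

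**Figure D2:**
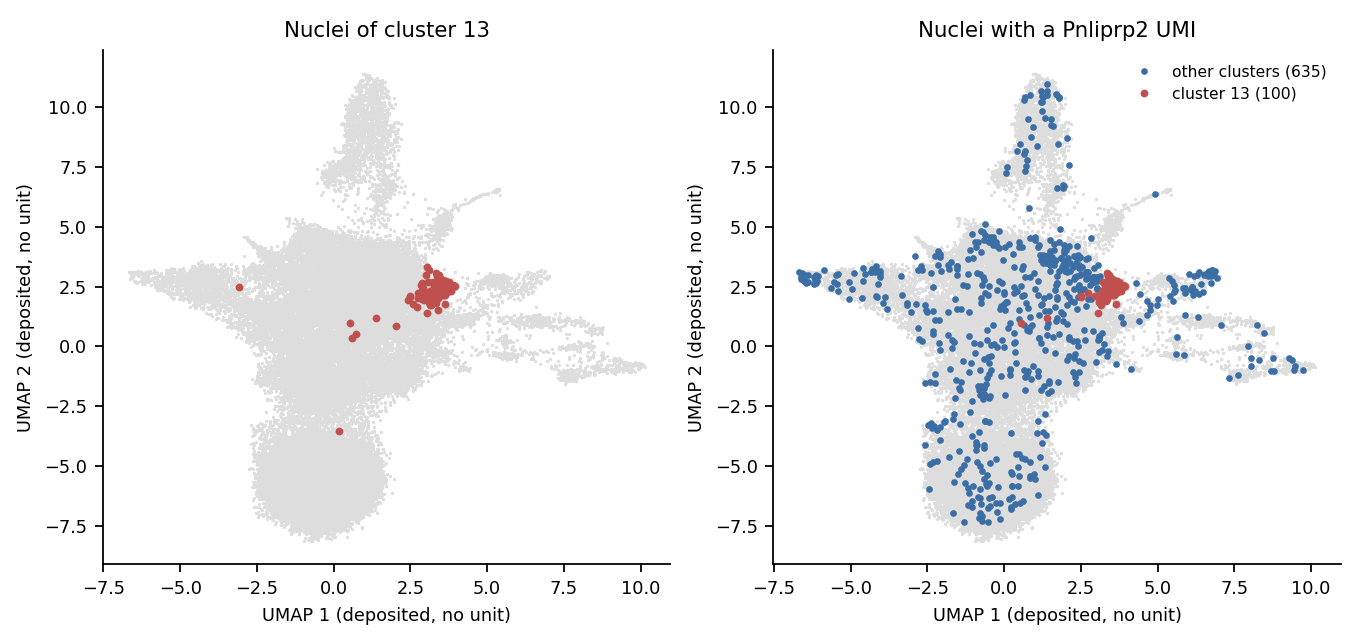
The deposited 2-dimensional map (UMAP axes have no unit), with all nuclei in grey; on the left the 160 nuclei of cluster 13 are red, and on the right the 735 nuclei with a *Pnliprp2* UMI are shown, red in cluster 13 (100) and blue elsewhere (635). Of the 15 nearest nuclei of the members of cluster 13, 67.2% are also in it, while most nuclei with a *Pnliprp2* UMI lie outside the cluster, over the whole map.

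Gene values were taken from the 4 samples with at least 5 nuclei of cluster 13, QCM replicates 1, 2 and 3 and SCM replicate 3. For each gene the level in cluster 13 and in the other nuclei was expressed as counts per 1000000 counts (CPM), and their log2 ratio was taken after adding 10 CPM to both. With at least 20 UMIs in cluster 13 and a UMI in at least 10% of its nuclei, 4833 genes could be ranked. The sums are small: 1 UMI was worth 5.09 CPM in QCM replicate 1, 18.0 in QCM replicate 2, 14.7 in QCM replicate 3 and 8.72 in SCM replicate 3.

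Of the 4833 genes, 1 was at least 2-fold higher in cluster 13 (0.0207% called) and 13 were at least 2-fold lower (0.269% called), while 90.4% lay within 0.5 log2 units of the other nuclei. Neither count was stable. The higher count was 3 with counts pooled over samples, 1 with 50 CPM added and 5 with 1 CPM added. The lower count was 1, 0 and 146 under the same settings. Genes with under 20 UMIs in cluster 13 are not ranked, so genes depleted there can be missing from the lower count. The ranking and the counts use the nuclei that formed the cluster and describe it. By the same rule the other 14 clusters had between 0 and 193 genes at least 2-fold higher. Clusters 0, 1 and 14 had 0 such genes. Of the other small clusters, cluster 12 with 284 nuclei had 2 and cluster 11 with 366 nuclei had 21.

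*Pnliprp2* (ENSMUSG00000025091) lies on chromosome 19, from 58759719 to 58777534 on the plus strand of GRCm38. Its level in cluster 13 was 56.0, 360.2 and 514.4 CPM in QCM replicates 1, 2 and 3 and 305.2 CPM in SCM replicate 3. In the other nuclei of the same samples it was 10.2, 3.26, 6.80 and 9.56 CPM. The 4 values in cluster 13 lay above all 4 values elsewhere, and QCM replicate 1, with the deepest nuclei, had the smallest gap. *Pnliprp1*, its closest measured relative, had 1 UMI in cluster 13 and 84 in all nuclei, and *Clps*, which encodes the colipase that assists pancreatic lipase, had 3 and 690.

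Behind *Pnliprp2* the ranking fell off at once. The next genes were *Stoml2*, an inner mitochondrial membrane protein (log2 difference 0.97 ± 0.44, SD, n = 4), *Exosc8*, a subunit of the RNA exosome (0.94 ± 0.78), and *Espn*, the actin bundling protein espin of microvilli (0.92 ± 0.16). *Espn* had the smallest spread of these 3, with 50.9, 36.0, 58.8 and 34.9 CPM in QCM replicates 1, 2, 3 and SCM replicate 3 against 25.9, 12.1, 22.7 and 15.7 CPM elsewhere. Its level was higher in each sample, and it rests on 21 UMIs in 20 nuclei. *Stoml2* had 71.3, 90.1, 102.9 and 95.9 CPM against 55.0, 31.2, 39.6 and 40.1. *Exosc8* was higher in 3 of 4 samples and lower in QCM replicate 1, with 56.0 against 63.5 CPM.

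The other leading genes included *Glrx5*, which serves in iron-sulfur cluster assembly (0.81), *Mrps34* of the mitochondrial ribosome (0.76), *Timm50* of the inner membrane import complex (0.74) and *Ndufa11* of respiratory complex I (0.69). The ranking also held the transcription factor *Cebpa* (0.81), *Brwd3* (0.76), the chaperone *Hsph1* (0.72), *Bco1*, which cleaves beta-carotene (0.72), and the spliceosomal *Snrpf* (0.71). The monocarboxylate carrier *Slc16a1* (0.69), the creatine transporter *Slc6a8* (0.69) and the actin severing *Gsn* (0.68) closed the group. *Ctdnep1*, *Tmem219* and the antisense transcript *Gm47376* lay at 0.72 and the tubulin *Tubb2b* at 0.71. The sources used here do not say whether reads were assigned by strand. Of the 20 leading genes, 16 were higher in 4 of 4 samples, and *Exosc8*, *Gm47376*, *Bco1* and *Gsn* in 3 of 4. When nuclei were thinned to 1000 UMIs, leaving out shallower ones, *Stoml2* was at 0.51, *Espn* at 0.44, *Ndufa11* at 0.33, *Cebpa* at 0.31, *Bco1* at 0.25 and *Hsph1* at -0.28, while *Pnliprp2* was at 3.98. *Bco1* varied most after *Pnliprp2*, from 0 CPM in QCM replicate 2 to 61.0 CPM in SCM replicate 3. Other means also rested on single samples. *Snrpf* and *Tmem219* were at 1.63 and 1.50 in QCM replicate 2 but 0.05 and 0.10 in QCM replicate 3. *Gsn* was at 1.70 in QCM replicate 3 and -0.02 in QCM replicate 2.

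**Figure D3:**
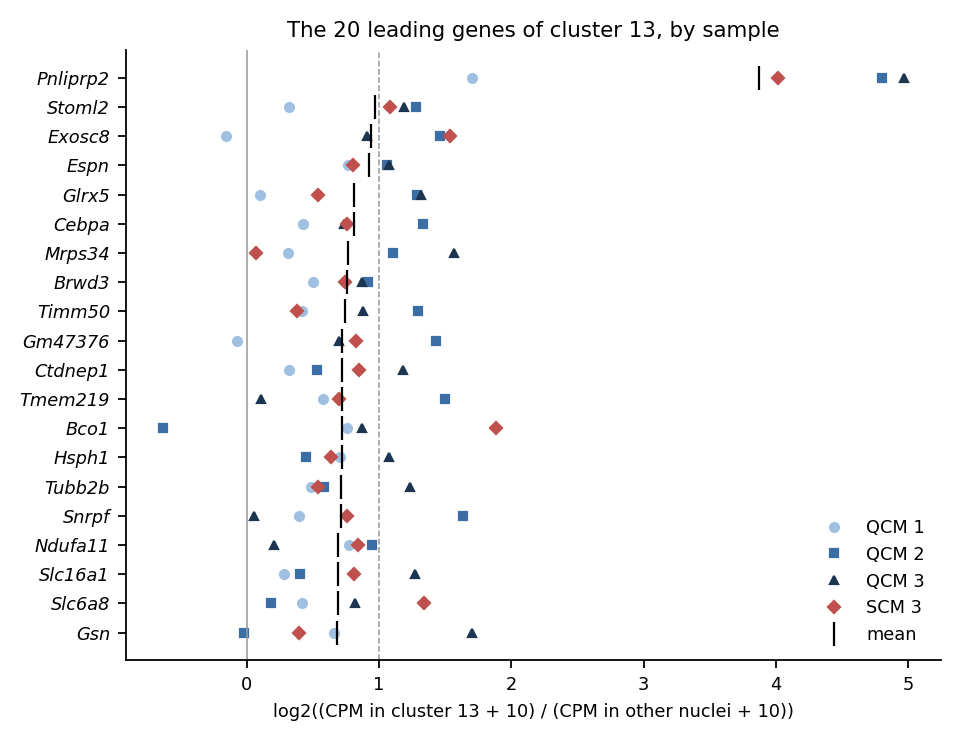
Log2 difference between cluster 13 and the other nuclei for its 20 leading genes, 1 symbol per sample and a black bar for the mean of the 4 samples; the solid line is no difference and the dashed line a 2-fold difference. *Pnliprp2* has a mean of 3.87 and lies between 1.71 and 4.96, and the means of the other 19 genes lie between 0.68 and 0.97.

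The genes lowest in cluster 13 among those with at least 100 CPM elsewhere were less even. *Chka*, a choline kinase, had the lowest mean (-1.37 ± 2.20, SD, n = 4), but it was set by QCM replicate 2, where cluster 13 had 0 UMIs against 243.7 CPM. In the other 3 samples *Chka* had 168.0, 191.1 and 157.0 CPM, against 218.5, 195.7 and 216.1. *Rras2*, a Ras related GTPase, was lower in 4 of 4 samples with little spread (-1.0 ± 0.32), at 66.2, 54.0, 58.8 and 69.8 CPM against 108.4, 160.5, 123.6 and 148.5. *Clmn* (-1.19), *Gm609* (-1.07) and *Nipa2* (-1.06) were also lower in 4 of 4 samples. *Nupr1* (-1.02) was too, but like *Chka* it had 0 UMIs in QCM replicate 2, and without that sample *Nupr1* was at -0.20 and *Chka* at -0.28. *Rngtt*, *Crk* and *Hnf1aos1* (-0.99 each) were lower in 3 of 4, and *Map2k2* (-0.99) in 2 of 4. *Rngtt* was at -0.41 without QCM replicate 3, and *Hnf1aos1* at -0.44 and *Map2k2* at -0.13 without QCM replicate 2, samples in which cluster 13 had at most 1 UMI of the gene. With counts pooled over samples *Map2k2* was at 0.05.

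A lower limit of 5 UMIs with no minimum share of nuclei, chosen after seeing the data, let in rarer transcripts. It admitted 9784 genes, of which 8 were at least 2-fold higher and 117 at least 2-fold lower. Beside *Pnliprp2* the higher ones were *Parp8* (1.34, 13 UMIs), *Alpi* (1.07, 19 UMIs), *Chp2* (1.06, 14 UMIs), *Nudt22* (1.05, 13 UMIs), *Slco2a1* (1.04, 13 UMIs), *2810407A14Rik* (1.08, 5 UMIs) and *Gm15351* (1.02, 6 UMIs). *Alpi*, the brush border alkaline phosphatase of enterocytes, was read in 17 of 160 nuclei (10.6%) against 2.55% of the others. It was concentrated in QCM replicate 1, with 11 of 26 nuclei against 15.7% of the others in that sample. *Alpi* was seen in 0 of 29 nuclei of QCM replicate 2, 2 of 43 of QCM replicate 3 and 4 of 58 of SCM replicate 3. The 0 of 29 allows up to 10.3% of nuclei with an *Alpi* UMI (3 nuclei), and its Wilson 95% upper limit is 11.7%.

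The detection of *Pnliprp2* was then followed nucleus by nucleus. It was read in 11 of 26 nuclei of QCM replicate 1, 20 of 29 of QCM replicate 2, 32 of 43 of QCM replicate 3, 0 of 1 and 2 of 3 of SCM replicates 1 and 2, and 35 of 58 of SCM replicate 3. Among the other nuclei, the share with a UMI was 7.46% in QCM replicate 1 and between 0.620 and 3.03% in the other 5 samples. The 107 UMIs of cluster 13 came as 1 UMI in 96 nuclei, more than 1 in 4 nuclei, and at most 5. In most of its nuclei with the gene, *Pnliprp2* was thus 1 molecule, as it was in 560 nuclei outside cluster 13.

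Detection was also described at equal depth. When every nucleus with at least 1000 UMIs was thinned to 1000, the expected share with a *Pnliprp2* UMI was 29.8% in cluster 13 and 0.447% elsewhere. Thinning left out 23 nuclei of cluster 13 and 3156 others. By sample, the expected share in cluster 13 was 5.79%, 28.6% and 46.5% in QCM replicates 1, 2 and 3 and 31.4% in SCM replicate 3. Elsewhere it was 0.856%, 0.243%, 0.489% and 0.399% in the same order. The nuclei were grouped on their full counts, so a difference after thinning is no test. Without thinning and pooled over samples, the lowest share of any cluster was 0.546% in cluster 11 (2 of 366 nuclei, median 2080.5 UMIs). The median in cluster 13 was 1864 UMIs. Clusters 0 and 10 followed with 0.726% and 0.828%. After thinning the lowest shares were 0.191% in cluster 10, 0.244% in cluster 0 and 0.276% in cluster 11. Free RNA in droplets was not measured, and its part was not tested.

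**Figure D4:**
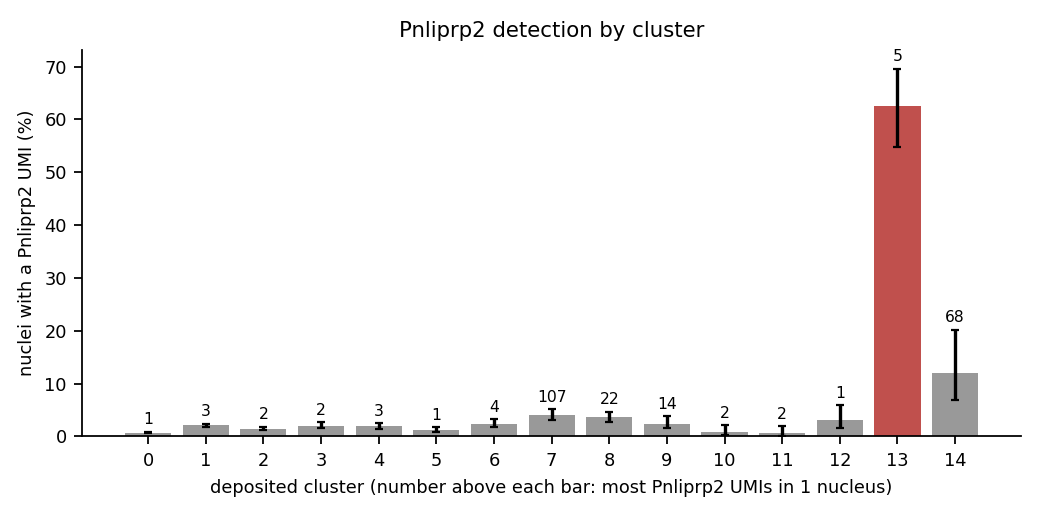
Percentage of nuclei with a *Pnliprp2* UMI in each deposited cluster, all samples pooled, with Wilson 95% intervals and, above each bar, the most *Pnliprp2* UMIs found in 1 nucleus. Detection is 62.5% in cluster 13 and at most 12.0% elsewhere, while the nuclei with the most UMIs lie in clusters 7 (107), 14 (68), 8 (22) and 9 (14).

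Cluster 13 did not hold the nuclei with the most *Pnliprp2*. Across the series 735 nuclei had a UMI, and 100 of these (13.6%) were in cluster 13. With at least 5 UMIs there were 19 nuclei, of which 11 lay in cluster 7, 5 in cluster 8, 1 each in clusters 9 and 14, and 1 in cluster 13 with 5 UMIs. These 19 nuclei carried 473 of the 1267 *Pnliprp2* UMIs of the series (37.3%). The 4 highest had 107, 84, 68 and 46 UMIs, and came from QCM replicate 1, SCM replicate 3, SCM replicate 1 and SCM replicate 3. All but the third, of cluster 14, lay in cluster 7.

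Pooled over samples, the level of *Pnliprp2* was highest in cluster 13 (239.1 CPM), followed by cluster 7 (46.3 CPM), cluster 8 (18.3 CPM) and cluster 14 (14.8 CPM). In cluster 14, 68 of the 79 UMIs came from 1 nucleus of SCM replicate 1, and without it the level was 2.17 CPM. Detection ran in another order, with 62.5% in cluster 13, 12.0% in cluster 14, 4.02% in cluster 7 and 3.60% in cluster 8. These shares pool samples that differ in detection. In QCM replicate 1, 7.46% of the nuclei outside cluster 13 had a UMI. That sample gave 34 of the 92 nuclei of cluster 14 and 145 of the 1442 of cluster 7. Cluster 14 had a median of 39432.5 UMIs per nucleus, and after thinning its share was 0.372%, under that of cluster 7 (1.15%). In cluster 7, 26 of 1442 nuclei (1.80%) held 2 or more *Pnliprp2* UMIs, and in cluster 13, 4 of 160 (2.5%).

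Of the nuclei with exactly 1 *Pnliprp2* UMI, 96 of 656 (14.6%) were in cluster 13, and these had lower median depths with overlapping ranges. Their median depth was 7724, 1876.5, 1312 and 1815 UMIs in QCM replicates 1, 2, 3 and SCM replicate 3, where those in other clusters had 8897, 2994, 1710 and 2527. Within these samples the median was lower in cluster 13 in 4 of 4. Among 1-UMI nuclei below the median depth of their sample, 64 of 265 (24.2%) were in cluster 13. Above it 32 of 391 (8.18%) were. At these depths a single molecule corresponds to a median of 129, 536, 762 and 551 CPM in cluster 13 of QCM replicates 1, 2, 3 and SCM replicate 3, and of 112, 334, 585 and 396 CPM elsewhere. The part of depth in the assignment to cluster 13 was not tested.

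**Figure D5:**
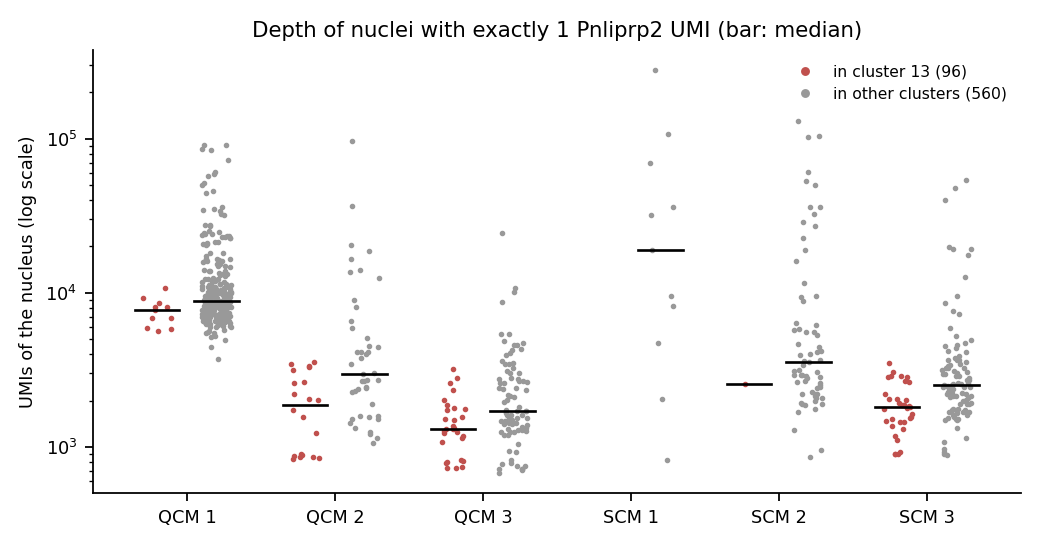
UMIs per nucleus (log scale) for every nucleus with exactly 1 *Pnliprp2* UMI, by sample, red in cluster 13 (96 nuclei) and grey in other clusters (560), with black bars for medians. The red medians lie under the grey ones in the 5 samples that have both.

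The number of nuclei in cluster 13 did not follow the number with *Pnliprp2* in the sample. QCM replicate 1 had 292 such nuclei and 11 of them in cluster 13 (3.77%), and SCM replicate 2 had 94 with 2 (2.13%). In QCM replicates 2 and 3 and SCM replicate 3 the totals were 69, 127 and 140, of which 29.0%, 25.2% and 25% lay in cluster 13. SCM replicate 1 had 13 and none of them there.

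The other 60 nuclei of cluster 13 had no *Pnliprp2* UMI. *Alpi* was read in 13 of these 60 (21.7%), 8 of them in QCM replicate 1. Adding *Alpi*, *Parp8* and *Chp2* to *Pnliprp2*, genes picked after their values were seen, covered 123 of the 160 nuclei (76.9%), and 2508 of the other nuclei (6.60%) carried 1 of the 4 as well. The remaining 37 nuclei had none of them. When only the 60 nuclei without *Pnliprp2* were set against the other nuclei, 2262 genes could be ranked. Of these, 4 were at least 2-fold higher, with *Tubb2b* (1.62) and *Fh1* (1.15) in front, and 93 were at least 2-fold lower. Of the 20 leading genes 2 stayed in the top 20, from which *Pnliprp2* was left out by construction. Others kept differences of like size, such as *Snrpf* (0.97), *Ctdnep1* (0.92), *Tmem219* (0.92) and *Glrx5* (0.76). *Stoml2* (0.23), *Exosc8* (0.27), *Cebpa* (0.26) and *Timm50* (0.28) were smaller, and *Espn* (-0.38), *Ndufa11* (-0.40) and *Gm47376* (-0.09) turned.

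Gene lists, 26 for cell types and 14 for functions, held 1 gene at least 2-fold higher and 0 at least 2-fold lower among the members that could be ranked. That gene is *Pnliprp2*, which stands in the Paneth list. Ranking asks for at least 20 UMIs in cluster 13. Members depleted there drop out, so the 0 lower members cannot show that none was lower. For 16 lists no member had enough UMIs to be ranked. Among unranked members, *Kit* of the mast cell list had 0 UMIs in cluster 13 against 15.9 CPM elsewhere. The summed level of a list was higher in 4 of 4 samples for 6 lists, lower in 4 of 4 for 6 and mixed for 28. Some of these directions rest on less than 1 UMI in a sample. The median log2 difference over all 4833 ranked genes was -0.07.

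Of the Paneth list, 14 genes were measured and 6 ranked. Beside *Pnliprp2* these were the defensins *Defa17* (0.55) and *Defa24* (0.41), *Guca2b* (0.45), *Itln1* (0.29) and lysozyme, *Lyz1* (-0.06). Without *Pnliprp2* the list summed to a mean of 1489 CPM in cluster 13 and 1117 CPM elsewhere, and was higher in 4 of 4 samples. In SCM replicate 3 the whole list had 697.7 against 390.7 CPM, of which *Pnliprp2* gave 305.2 and 9.56 CPM. The rest was nearly level there. *Itln1* and *Defa24* had 148.3 and 78.5 CPM against 186.7 and 84.4 in that sample, but were higher in QCM replicates 1, 2 and 3. By the same measure the list without *Pnliprp2* was 1842 CPM in cluster 6, led by *Kcnma1*, and 1499 CPM in cluster 1. *Lyz1*, the textbook Paneth marker, was at 58.0 CPM in cluster 13, 55.8 CPM in the other nuclei and 173 CPM in cluster 6.

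Of the absorptive lineage, the 20 enterocyte genes summed to 7671, 2756, 3954 and 3375 CPM in QCM replicates 1, 2, 3 and SCM replicate 3, against 7048, 2276, 3589 and 2965 in the other nuclei. Cluster 13 was higher in 4 of 4 samples, by less than the differences between samples. Among the 14 ranked enterocyte genes, the fatty acid binding protein *Fabp2* (0.38) and the aminopeptidase *Anpep* (0.34) lay above the other nuclei and *Cyp3a11* (-0.82) below, the last with 0 UMIs in QCM replicate 2 and SCM replicate 3. The median of the list was 0.02, and cluster 8, led by *Cyp2c29*, had 8059 CPM by the same sum, against 4439 CPM in cluster 13. Cluster 1 also lay above cluster 13, with 4664 CPM, and clusters 12 and 4 followed with 4245 and 4169 CPM.

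Stem cell genes summed to 3659 CPM in cluster 13 and 3780 CPM in the other nuclei, with 12 of 15 ranked and a median of -0.04. *Znrf3* (-0.42), a Wnt feedback regulator, was the farthest. The 25 ranked proliferation genes had a median of -0.07, with *Ube2c* at 0.52 and *Kif4* at -0.61. *Kif4* was set by QCM replicate 3, with 0 UMIs in cluster 13 against 75.6 CPM, and was higher in cluster 13 in the other 3 samples. Goblet genes (5 ranked, median 0.10) and enteroendocrine genes (3 ranked, median -0.19) included *Tff3* at 0.20 and *Chgb* at 0.00. *Fcgbp* was the farthest of the ranked goblet genes (-0.75), set by SCM replicate 3, and *Muc13* lay at -0.21. The mucin *Muc2*, with too few nuclei to be ranked, had 21 UMIs and lay at -0.93, with 0 UMIs in QCM replicate 2 and SCM replicate 3. *Zg16*, also an unranked goblet gene, had 11 UMIs and lay at 0.68. For tuft cells, 10 of 16 genes had 0 UMIs in cluster 13 and the list had 11 UMIs in all. Its mean sum was 22.4 CPM, against 25.5 CPM elsewhere, and was higher in 2 of 4 samples.

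Markers of stroma, vessels and immune cells were at or near 0. Of 18 fibroblast and mesenchyme genes 14 had no UMI in cluster 13, with 10 UMIs in the list, 5 of them from *Col5a2* (mean sum 24.1 CPM, against 14.7 CPM elsewhere, higher in 3 of 4 samples). *Col1a1*, *Col1a2*, *Col3a1* and *Pdgfra* had 0 UMIs. Of 14 macrophage and myeloid genes 12 had none, of 11 T and NK cell genes 9, and of 10 endothelial genes 7. The 5 acinar pancreas genes had 22 UMIs together (mean sum 34.9 CPM, against 39.0 CPM elsewhere). Other foreign lists were not at 0. The 9 hepatocyte genes had 382 UMIs (876 CPM against 748 CPM, higher in 4 of 4 samples), nearly all from *Cps1* (309) and *Ttr* (69), which the other nuclei held too, while *Alb*, *Apoh* and *Fga* had none. The 9 glia genes had 102 UMIs (229 against 238 CPM), mostly *Mbp* and *Erbb3*, with *Sox10* and *Gfap* at 0. The 14 neuron genes had 30 UMIs (76.2 against 52.4 CPM, higher in 3 of 4), with *Rbfox3* and *Elavl4* at 0. A count of 0 in the 447441 UMIs of cluster 13 allows a level of up to 6.70 CPM (3 counts).

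Among the functional lists, heat shock and unfolded protein genes were higher in 4 of 4 samples. They summed to 3746, 2792, 2675 and 2128 CPM in QCM replicates 1, 2, 3 and SCM replicate 3, against 3436, 2029, 2078 and 1987 elsewhere. The 11 ranked genes had a median of 0.28, with the chaperones *Hsph1* (0.72), *Hspd1* (0.35), *Hspe1* (0.32) and the stress transcription factor *Atf4* (0.31) in front. *Hsph1* turned to -0.28 when nuclei were thinned to 1000 UMIs. The AP-1 and immediate early list was also higher in 4 of 4 samples (mean 525 against 486 CPM), though its 5 ranked genes had a median of -0.05. In QCM replicate 1 its sums were 626.1 and 623.6 CPM, less than 1 UMI (5.09 CPM) apart. Canonical Wnt genes were lower in 4 of 4 samples (mean 2844 against 3243 CPM, 12 ranked, median -0.19), among them *Ephb2* (-0.52), *Znrf3* (-0.42) and *Tcf7l2* (-0.36). YAP targets summed to 440 CPM against 514 CPM, also lower in 4 of 4, with *Crim1* (-0.48) and *Dock5* (-0.20) the only 2 of 21 ranked. In QCM replicate 2 the YAP target sums were 612.4 and 621.4 CPM, less than 1 UMI (18.0 CPM) apart. *Ccn2* and *Ankrd1* had 0 UMIs, but only 0.31 and 0.83 CPM elsewhere, too little to show a difference. Extracellular matrix and adhesion genes were lower in 4 of 4 as well, with *Cd44* at -0.76 and *Itga2* at -0.53. *Cd44* was level in QCM replicate 1 (71.3 against 70.9 CPM) and had 1 UMI in QCM replicate 3 (14.7 against 74.9 CPM). *Itga2* was nearly level in QCM replicate 3 (102.9 against 106.9 CPM).

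*Malat1* was lower and ribosomal protein RNA higher in cluster 13. *Malat1*, which is retained in the nucleus, had 10582 CPM, 14193, 7702 and 14163 CPM in QCM replicates 1, 2, 3 and SCM replicate 3, against 14066, 20565, 13196 and 17055 CPM. *Neat1*, another such RNA, was lower by the log2 measure (-0.48). Other nuclear noncoding RNAs were mixed, with *Rn7sk* at -0.34 on the log2 scale but higher in mean CPM (616.8 against 435.8, and 2190 against 1060 in QCM replicate 3), and *Ftx* (0.21), *Dleu2* (0.10) and *Gas5* (0.07) above 0. *Malat1* gave 7465 of the 9582 UMIs of this list, and without it the sum was lower in QCM replicates 1 and 2 and higher in QCM replicate 3 and SCM replicate 3. The 96 ribosomal protein genes took 16.6%, 7.01%, 11.5% and 8.00% of the UMIs of cluster 13, and 14.1%, 4.92%, 10.3% and 7.25% of the others. *Malat1* was lower, and the ribosomal protein share higher, in 4 of 4 samples. Cluster 1, the most frequent neighbour on the map, went further in both, with a mean of 13.2% ribosomal protein UMIs and 9434 CPM of *Malat1*, against 10.8% and 11660 CPM in cluster 13. These shares lie beside each list above, and their part in those differences was not tested.

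Across 2314 genes with at least 100 CPM in the other nuclei and *Pnliprp2* left out, the profile of cluster 13 had a Pearson correlation of 0.963 with all other nuclei, as a description across genes. Its correlation was 0.970 with cluster 4, 0.965 with cluster 3, 0.959 with cluster 12 and 0.958 with cluster 1. It was lowest with cluster 14 (0.588), the deep nuclei, and next with cluster 8 (0.882). These values share libraries and depth, and small clusters are noisier. From cluster 1, 4 of the 2314 genes differed by 2-fold or more.

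Whether gene levels within cluster 13 differ between the media was hardly testable. With 5 nuclei as a minimum per sample, 3 QCM samples and 1 SCM sample remained, and no fit was made. Keeping every sample, the SCM arm then had 62 nuclei of which SCM replicates 1 and 2 gave 1 and 3. edgeR tested 1160 genes and called 1 (0.0862% called, 55 with an unadjusted p under 0.05), and DESeq2 called 0 (22 with an unadjusted p under 0.05). The gene was *Fcgbp*, a mucus protein of goblet cells, with 56, 13 and 15 UMIs in the QCM replicates and 0, 0 and 2 in the SCM replicates (log2 -4.15 ± 0.94, SE; edgeR adjusted p = 0.0126). The call did not hold under most other settings. The edgeR adjusted p was 0.0510 with library size alone, 0.241 with no filter and 0.441 with the replicate block, and it was 0.999, 0.252 and 0.254 without QCM replicate 1, QCM replicate 3 and SCM replicate 3. It was 0.0384, 0.0115 and 0.0423 without QCM replicate 2, SCM replicate 1 and SCM replicate 2.

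In CPM, *Fcgbp* was at 285.1, 234.2 and 220.5 in cluster 13 of the QCM replicates and at 17.4 in that of SCM replicate 3. The other nuclei had 317.1, 265.3 and 220.3 CPM in QCM, and 159.9, 309.8 and 165.1 CPM in SCM replicates 1, 2 and 3. The gap between SCM replicate 3 and the QCM replicates was thus larger in cluster 13 than in the other nuclei, which was not tested, and it rests on 1 SCM sample with 2 *Fcgbp* UMIs.

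The leading genes were last compared between the media over all nuclei. *Pnliprp2* had 10.5, 4.08 and 8.53 CPM in QCM replicates 1, 2 and 3 and 19.9, 9.52 and 10.8 CPM in SCM replicates 1, 2 and 3. The groups overlapped, and the difference was 0.55 ± 0.46 (log2, SE, SCM against QCM; edgeR adjusted p = 0.929). Of the 81 UMIs of SCM replicate 1, 68 came from 1 nucleus of cluster 14, and without SCM replicate 1 the difference was 0.21 (edgeR adjusted p = 0.940). It was 0.20 without QCM replicate 2 and 1.00 without QCM replicate 1 (edgeR adjusted p = 0.838 and 1.00). With the replicate number as a block it was 0.66 (edgeR unadjusted p = 0.0379, adjusted p = 0.796). In summed RNA a change in the number of expressing nuclei and in the RNA per nucleus cannot be told apart.

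Of the 20 leading genes edgeR called 0 between the media, where it called 0 of 19046 genes (0% called). An unadjusted p under 0.05 was reached by 3 of the 20 and by 866 of all genes. DESeq2 called 20 genes (0.105% called), none of them a leading gene. The median difference of the 20 was -0.57 on the log2 scale, SCM against QCM, where that of all genes was -0.01, and 16 of 20 lay below 0. The 20 genes were chosen from 3 QCM samples and 1 SCM sample, so all genes are no matched reference. The choice may favour genes high in QCM, which was not tested. QCM replicate 1 gave 356 of their 820 UMIs in cluster 13 (43.4%), and 196457 of the 447441 UMIs of all genes there. Nothing is read from this median. The median was -0.21 without QCM replicate 1 and between -0.79 and -0.46 when any other sample was left out. The number of the 20 with an unadjusted p under 0.05 ran from 0, without QCM replicate 1, SCM replicate 1 or SCM replicate 2, to 10 without QCM replicate 2, and it was 7 with DESeq2 and 5 with the replicate block. The share of all genes with such a p moved too, from 4.55% to 0.813% without SCM replicate 2, 11.8% without QCM replicate 2, 6.43% with DESeq2 and 6.19% with the block. QCM replicate 1 has the deepest nuclei and, with SCM replicate 1, the high *Xist* level, and the part of either was not tested. *Snrpf*, for example, had 310.8, 51.7 and 169.4 CPM in QCM and 103.1, 42.6 and 99.5 CPM in SCM, and *Ndufa11* had 160.1, 51.4 and 88.0 against 32.7, 34.2 and 68.8. In both genes QCM replicate 1 was the highest sample and QCM replicate 2 lay within the SCM range.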

How the data were processed

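The authors isolated nuclei from frozen organoids and made droplet libraries (Chromium 3′ kit). Per the submitters' processing notes, reads were processed with Cell Ranger 2.1.1 on mm10. The deposited matrices hold UMI counts per gene and nucleus, and the deposited table of nuclei gives the cluster number, the mitochondrial share as a fraction and the map coordinates as a score with no unit. The authors filtered nuclei before deposit, and all 38154 were kept here. The deposited log values were not used. Samples held 4071926 to 41035733 UMIs. Some cell cycle and mitochondrial genes were not analysed here.

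Cluster 13 was compared with the other nuclei of the same sample, without a test. Named genes were the 20 highest and the 10 lowest by the mean log2 ratio with 10 CPM added, then up to 4 members a list, and others where said. The members and lists were chosen with earlier results of these data known. Symbols and coordinates come from GENCODE on GRCm38. Doublets were scored with Scrublet in scanpy 1.11.5, whose calls (261, of which 260 in SCM replicate 1) were not usable, so none was removed. Media were compared on counts summed per sample with the edgeR 4.0.16 quasi-likelihood test (TMM, filterByExpr, Benjamini-Hochberg, 0.05) in R 4.3.3, and with exact permutation tests. limma 3.58.1 and DESeq2 1.42.0 served as alternatives. The fits were tested on simulated data. Shares have Wilson 95% intervals, which cover counting error only, also where samples are pooled.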

Additional observations from a re-analysis of the deposited data

How the results depend on the processing

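*Pnliprp2* ranked first in cluster 13 under each alternative that kept the nuclei carrying it, with a log2 difference between 2.41 (50 CPM added) and 4.91 (1 CPM added). The genes behind it depended on the processing. Of the 20 leading genes, 11 stayed in the top 20 with 50 CPM added, 8 with counts pooled over samples and 9 after thinning to 1000 UMIs. From 7 to 10 stayed when 1 of the 4 samples used was left out. SCM replicates 1 and 2 do not enter the log2 differences, so leaving either out kept all 20. Of the alternatives chosen after seeing the data, 4 stayed with a floor of 5 UMIs and 2 when only nuclei without *Pnliprp2* were used. The count of genes at least 2-fold higher was 1, and became 5 with 1 CPM added, 3 with pooled counts, 8 with the floor of 5 UMIs, 4 for nuclei without *Pnliprp2*, and 1 to 4 when a sample was left out. The cause was not tested. The noncoding list without *Malat1* and the *Pnliprp2* level without the highest nucleus of a cluster were also added after seeing the data.

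For relative depth, the difference between the media changed sign, to 0.019 in samples with at least 5 nuclei and, when a sample was left out, ranged from -1.24 to 0.096. The positive value came without SCM replicate 1. Over all nuclei DESeq2 called 20 genes where edgeR called 0. The share of cluster 13 stayed lower in SCM in each alternative and was called in none, with differences from -2.47 to -0.14 when a sample was left out. With library size alone the median of all genes was 0.14 and that of the leading genes -0.38.

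Deviations of same-numbered samples correlated at 0.36, 0.46 and -0.09, so the numbers were not used as pairs, although the replicates numbered 1 share barcodes and the high *Xist* level. With the replicate block, the share differed by -0.86 and edgeR called 0 genes over all nuclei. Within cluster 13 no fit could be made with 5 or 10 nuclei as a minimum. For the fit over all samples, the other settings with edgeR were added after seeing the data. It called 1 gene, and 0 with DESeq2, library size alone or the replicate block, 7 with no filter, and 0 to 2 when a sample was left out. Depth is a limit, since 160 nuclei and 447441 UMIs leave most leading genes with under 50 UMIs, and so is the single SCM sample with at least 5 nuclei.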
